A study of Mus musculus with 12 samples.

Results

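The 9 genes described here are the enzymes that build and break down hyaluronan and the hyaluronan receptor Cd44, as they were counted in cultured mouse oligodendrocytes (OLs) after interference with Egr2. They were taken by symbol from the deposited count table, in which all 9 have an entry among 56860 named genes: Has1, Has2 and Has3, which synthesize hyaluronan, Hyal1, Hyal2, Hyal3, Cemip and Cemip2, which take part in its breakdown, and Cd44. The cells came from the cortex of newborn C57BL/6J mice, were enriched with beads against the surface antigen O4, grown with PDGF-AA and then differentiated with insulin, triiodothyronine and ciliary neurotrophic factor. The labels name the medial prefrontal cortex as the tissue. One group of 6 libraries (siEgr2) was transfected to silence Egr2 and the other group of 6 (siNC) received a scrambled control, and RNA was collected 48 h later. The methods name the reagent as an siRNA in one place and as an interference plasmid in another. Strain and culture steps are the same for both groups, and nothing in the sources used here says that the libraries of a group came from separate cultures or animals, so the p-values measure the spread between these libraries, which may be technical.

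Hyaluronan is a long, unsulfated sugar chain of the extracellular matrix. Has enzymes in the plasma membrane extrude it into the matrix, cell-surface and secreted enzymes cut it into fragments, and lysosomal enzymes finish its breakdown. Cd44 is its best known receptor, a membrane glycoprotein that ties hyaluronan to the actin cytoskeleton through the ezrin, radixin and moesin proteins. In the central nervous system Cd44 is known from astrocytes and glial progenitors, and hyaluronan that accumulates in demyelinated tissue is known to hold back the maturation of oligodendrocyte precursors.

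Total counts per library were 28682946 to 39383014 in siNC and 8034251 to 16683677 in siEgr2, and the 18S ribosomal RNA gene Rn18s-rs5 took 0.142% to 1.05% and 10.5% to 16.5% of them. Depth and ribosomal RNA share therefore move with the treatment. On counts thinned to the smallest library Cd44 stood at -0.78 on the log2 scale and without structural RNA genes at -0.75, and neither fit called another of the tested hyaluronan genes. Neither fit separates these library differences from the treatment, and their part in the changes below was not tested. Levels are given as CPM, counts scaled to a common library total after TMM normalization. Egr2, the gene aimed at, had a lowest, median and highest level of 3.89, 5.19 and 7.06 CPM in siNC and 2.22, 3.93 and 4.86 CPM in siEgr2. Its ranges overlapped, and its log2 fold change of -0.51 (standard error 0.21) gave 0.0981 as adjusted p (edgeR quasi-likelihood fit, Benjamini-Hochberg), so the knockdown itself was not called. The two-sided exact permutation test on its levels alone gave p = 0.0433. On thinned counts the log2 fold change of Egr2 was -0.33 (adjusted p = 0.391). All adjusted p-values of single genes below come from that fit unless another is named.

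The test could be run for 7 of the 9 hyaluronan genes, and 1 of the 7 was called different: Cd44 fell. To be called, a gene needed a log2 fold change beyond 0.5 in either direction as well as an adjusted p below 0.05, and over all 16600 genes tested 7.72% were called and 5.08% were called lower. The 3 synthases and the 5 genes of hyaluronan breakdown held no call. Has1 and Hyal3 had too few counts for the test. The median log2 fold change of the 7 tested genes was -0.15, beside 0.0046 over all genes tested.

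**Figure D1:**
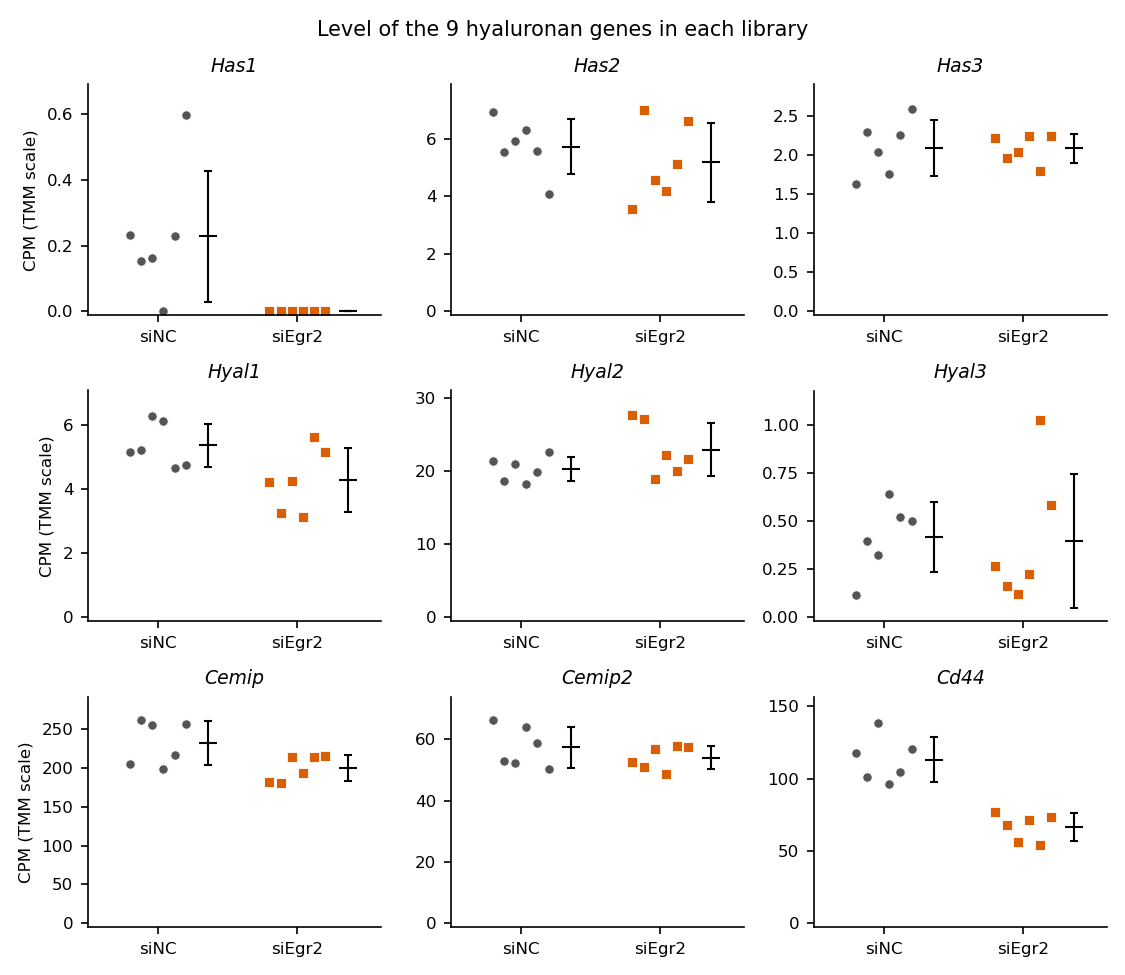
CPM (TMM scale, linear axes) of each of the 9 genes in every library, with siNC as grey circles and siEgr2 as orange squares in the order of the replicate numbers, and the mean with its SD as a black bar beside each group (n = 6). Cd44 is the gene whose groups do not overlap, Has1 is at 0 CPM in all siEgr2 libraries and in 1 siNC library, and the other 7 genes overlap between the groups.

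Cd44 lies on the minus strand of chromosome 2 of the mouse genome GRCm38, from 102811141 to 102901665, with 9 transcripts in GENCODE M21. Its lowest, median and highest level was 96.2, 111 and 138 CPM in siNC and 53.8, 69.8 and 76.6 CPM in siEgr2. All 6 siEgr2 libraries lay below the lowest siNC library, which held for 7% of all tested genes, while 11.2% had groups that did not overlap in either direction. The siNC mean of 113 ± 15.5 CPM stood against 66.6 ± 9.55 CPM in siEgr2 (SD, n = 6). This is a log2 fold change of -0.76 (standard error 0.11, 95% interval -0.99 to -0.54), at an edgeR adjusted p of 0.000152. In a two-sided exact permutation test over the 924 assignments of the libraries p was 0.00216, the smallest value that 6 against 6 libraries can give. By its p, Cd44 ranked 545 among the tested genes, and by the size of its fall 400 among the 844 genes called lower. These values rest on 3200 to 5021 counts in each siNC library and on 420 to 1140 in each siEgr2 library. Cd44 stayed called in all 22 other fits, with log2 fold changes from -0.95 to -0.70. The counts are summed over transcripts, so the standard and variant forms of Cd44 are not separated. In these bulk samples fewer cells of a type and less RNA per cell cannot be told apart.

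The 250 bases before the start of Cd44 are shown because it is the gene that changed and because Egr2 is a DNA-binding factor. They lie at chr2:102901666-102901915 on GRCm38.p6, minus strand, and come from the RefSeq promoter table, which holds 6 of the 9 genes. The capitals mark the motif GTGGGCG.

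Cd44: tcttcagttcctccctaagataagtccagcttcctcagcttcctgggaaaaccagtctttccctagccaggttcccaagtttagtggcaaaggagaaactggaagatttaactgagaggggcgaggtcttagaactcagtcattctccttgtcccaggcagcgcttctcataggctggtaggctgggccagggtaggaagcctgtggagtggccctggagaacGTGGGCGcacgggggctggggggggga

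The Egr family motif GCGNGGGCG was searched on both strands in windows of 300 bases that reach from 250 bases before a start to 50 after it. It was in none of the 6 windows of Cd44, Cemip, Hyal1, Hyal2, Hyal3 and Has1, and in 5.55% of all 32851 windows. The shorter motif GTGGGCG, which is the end of the longer one where N is T, was added after the sequences were read. It occurred once before the start of Cd44, with its first base at 27 bases before it, once on the other strand before the start of Cemip, and in 7.97% of all windows. Cemip had 33 CG pairs in its window and Cd44 had 6, against a median of 7 over all windows. These matches describe the letters of the windows and no binding.

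Has2, the main synthase in development, had the highest level per length of the 3 synthases and was not called. Its lowest, median and highest level was 4.09, 5.75 and 6.95 CPM in siNC and 3.56, 4.85 and 7.0 CPM in siEgr2, so 4 of the 6 siEgr2 libraries lay inside the siNC range. Its log2 fold change was -0.15 with a 95% interval from -0.54 to 0.23 (adjusted p = 0.613, edgeR), and it ran from -0.26 without siEgr2 replicate 2 to -0.065 without siEgr2 replicate 1. With scaling by library size alone Has2 stood at -0.34 (adjusted p = 0.163). A fall to the size of that of Cd44 lies outside this interval, while one of 0.5 does not. The gene lies on the minus strand of chromosome 15 from 56665627 to 56694539, and the antisense gene Has2os overlaps 182 bp of its exons, which cannot be told apart where strand is not used in counting.

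Has3 makes shorter chains than its relatives. Its lowest, median and highest level was 1.63, 2.14 and 2.59 CPM in siNC and 1.79, 2.13 and 2.24 CPM in siEgr2. All 6 siEgr2 libraries lay within the siNC range, and the estimate of -0.0036 on the log2 scale had a 95% interval from -0.42 to 0.41 (adjusted p = 0.993, edgeR). Its sign changed between fits, and with library size alone Has3 stood at -0.19 (adjusted p = 0.491). In siEgr2 it rested on 14 to 33 counts per library. Chtf8, a protein-coding gene on the opposite strand, overlaps 352 bp or 5.52% of the exon length of Has3, and without strand their reads cannot be told apart there.

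Has1 was close to the limit of detection. The 6 siNC libraries held 50 counts in all, with 8, 5, 5, 0, 7 and 25 in the order of their replicate numbers, and the 6 siEgr2 libraries held 0. At the pooled siNC level of 0.244 CPM, 18.3 counts would correspond to the depth of the siEgr2 libraries. With 3 counts over the group as the limit that a count of 0 allows, the siEgr2 level was up to 0.0401 CPM. The pooled siNC level was 6.09 times this limit, and 3.83 times without siNC replicate 6, which holds 25 of the counts. The limit covers counting error in siEgr2 only and takes the siNC level as exact, although siNC replicate 4 also held 0 counts. The exact permutation test, two-sided, on log2 of CPM plus 0.5 gave p = 0.0152. The gene did not pass the filter on low counts, and with no filter it was called lower at an edgeR adjusted p of 0.0330. Both p-values rest on counts that come from siNC alone.

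Among the genes of breakdown, Cemip, also named HYBID, which is needed for the cutting of hyaluronan at the cell surface in several cell types, had the highest level. It lies on chromosome 7 from 83932857 to 84086502. Its lowest, median and highest level was 199, 236 and 261 CPM in siNC and 181, 203 and 216 CPM in siEgr2. The groups overlapped, with 3 siEgr2 libraries below the lowest siNC library and 3 inside the siNC range. The mean was 232 ± 28.5 CPM in siNC and 200 ± 16.7 CPM in siEgr2 (SD, n = 6). The log2 fold change of -0.22 (95% interval -0.38 to -0.050) had an edgeR adjusted p of 0.0670 and p = 0.0498 in the two-sided exact permutation test. Over the fits without 1 library the adjusted p ran from 0.0247 to 0.140. It was 0.0405 with the replicate number as a block and 0.0401 with no filter on low counts. Scaled by library size alone the log2 fold change of Cemip was -0.40 (adjusted p = 0.00166), where the median of all genes was -0.18, and no fit brought its size over 0.5.

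Cemip2, formerly Tmem2, is a related membrane protein that degrades hyaluronan on the cell surface. Its lowest, median and highest level was 50.2, 55.8 and 66.3 CPM in siNC and 48.7, 54.8 and 57.8 CPM in siEgr2, and 5 of the 6 siEgr2 libraries lay inside the siNC range. Its log2 fold change was -0.088 with a 95% interval from -0.25 to 0.072 (adjusted p = 0.464, edgeR), and it was -0.041 without siNC replicate 1 and -0.053 without siNC replicate 4. Scaled by library size alone it was -0.27 (adjusted p = 0.0154), where the median of all genes was -0.18.

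Hyal1, Hyal2 and Hyal3 lie side by side on chromosome 9. Hyal2, which is anchored to the cell surface, ran from 107567945 to 107572779 and was the only tested member with a fold change above 0 in the TMM fit, with Has3 at -0.0036. Its lowest, median and highest level was 18.3, 20.4 and 22.5 CPM in siNC and 18.9, 21.9 and 27.7 CPM in siEgr2, with 2 siEgr2 libraries above the siNC range and 4 inside it. The log2 fold change was 0.18 with a 95% interval from -0.035 to 0.39 (adjusted p = 0.241, edgeR), and without TMM, scaled by library size alone, it was -0.0064. Without siEgr2 replicate 1, one of the libraries above the siNC range, it was 0.11.

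Hyal1, the lysosomal hyaluronidase, had a lowest, median and highest level of 4.68, 5.20 and 6.28 CPM in siNC and 3.14, 4.25 and 5.63 CPM in siEgr2. Of the siEgr2 libraries, 4 lay below the siNC range and 2 inside it. The log2 fold change of -0.34 (95% interval -0.69 to 0.0080) had an edgeR adjusted p of 0.167 and p = 0.0433 in the two-sided exact permutation test. With library size only it was called, at -0.52 (adjusted p = 0.0234, same test), where the median of all genes was -0.18. The value is uncertain, because Naa80, an acetyltransferase gene on the same strand, shares 1920 bp or 50.8% of the exon length of Hyal1, and how shared reads were assigned is not given in the sources used here. Naa80 itself had a log2 fold change of -0.49 (adjusted p = 0.0936). Hyal3, whose own enzyme activity is unclear, was counted 4 to 22 times in an siNC library and 2 to 8 times in an siEgr2 library, with 0.418 ± 0.184 and 0.398 ± 0.348 CPM (SD, n = 6). Of its exon length Hyal3 shares 159 bp with Hyal1 and 118 bp with Naa80, so its counts are uncertain in the same way. No difference was detectable for Hyal3 at this depth (two-sided exact permutation test, p = 0.747).

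**Figure D2:**
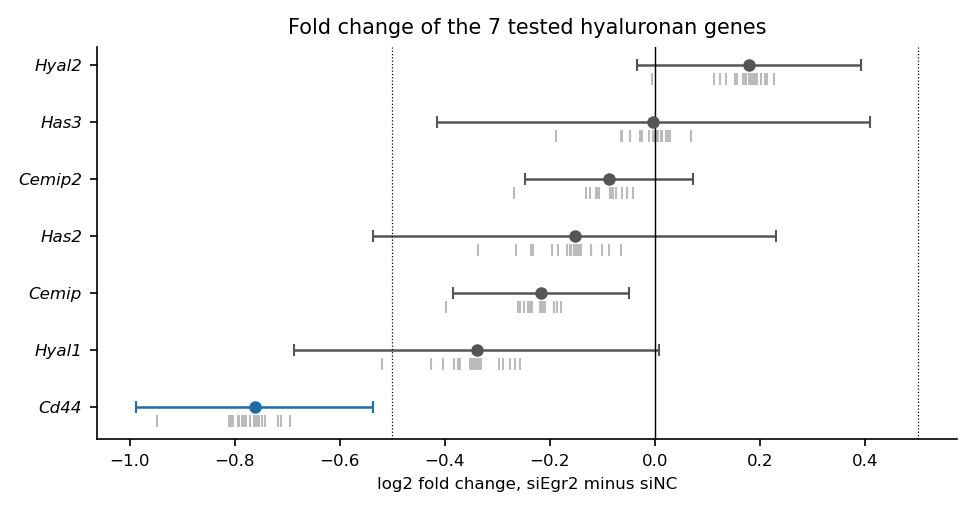
Log2 fold change (siEgr2 minus siNC) of the 7 tested genes, with points for edgeR's estimate, bars for the 95% interval, grey ticks for the other fits and dotted lines at a fold change of 0.5 in either direction. Cd44, in blue, at -0.76 is the gene whose interval lies beyond the dotted line, and Hyal2, at 0.18, is the point above 0, with Has3 at -0.0036 and ticks on both sides of 0.

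To compare levels between genes, CPM was divided by exon length in kb. For Hyal1, 50.8% of that length is shared with Naa80, so its level per kb, its place below and its part in sums are uncertain. In siNC the order was Cemip (19.0 ± 2.33 CPM per kb, SD, n = 6), Cd44 (16.7 ± 2.29), Cemip2 (6.73 ± 0.787), Hyal2 (6.15 ± 0.50), Hyal1 (1.42 ± 0.180), Has2 (1.35 ± 0.227), Has3 (0.328 ± 0.0562), Hyal3 (0.214 ± 0.0947) and Has1 (0.0507 ± 0.0442). The ranges over libraries overlapped for the neighbours Cemip and Cd44, Cemip2 and Hyal2, Hyal1 and Has2, Has3 and Hyal3, and Hyal3 and Has1. The steps from Cd44 to Cemip2, from Hyal2 to Hyal1 and from Has2 to Has3 did not overlap. Among the tested genes with a known length, Cemip and Cd44 stood at percentiles 83.0 and 80.5 in siNC, Has2 at 23.4 and Has3 at 7.16.

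In siEgr2 the same 9 genes ran from Cemip (16.3 ± 1.37 CPM per kb) through Cd44 (9.83 ± 1.41), Hyal2 (6.95 ± 1.11), Cemip2 (6.34 ± 0.451), Has2 (1.22 ± 0.323), Hyal1 (1.13 ± 0.264) and Has3 (0.326 ± 0.0291) to Hyal3 and Has1. Here Cemip and Cd44 no longer overlapped, while the ranges of Cd44 and Hyal2 did. Hyal2 and Cemip2, and Has2 and Hyal1, had changed places within overlapping ranges.

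**Figure D3:**
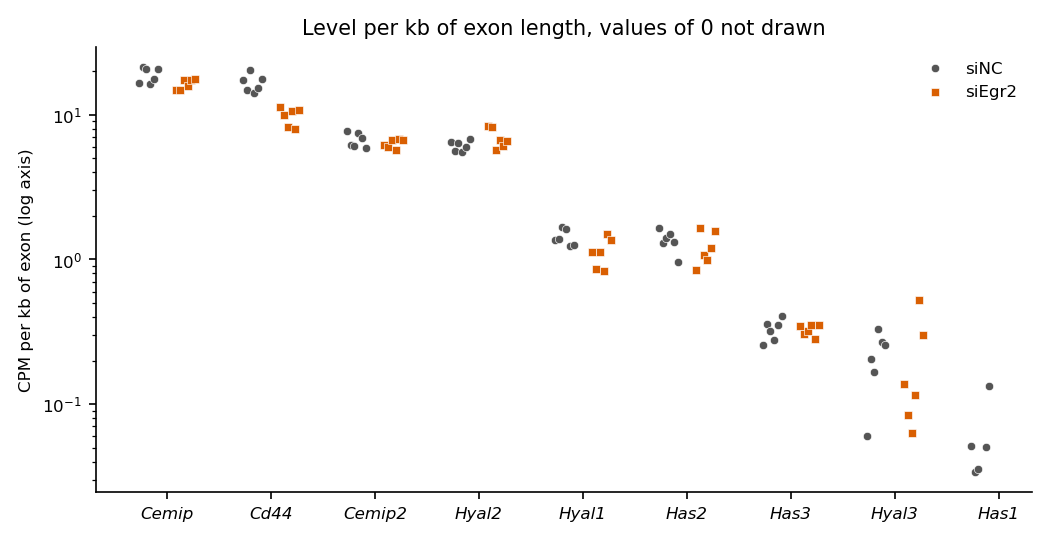
CPM per kb of exon length (log axis) of the 9 genes in every library, ordered by their siNC mean, with siNC as grey circles and siEgr2 as orange squares. Values of 0 are not drawn, which leaves out Has1 in all siEgr2 libraries and in siNC replicate 4. Cemip and Cd44 overlap in siNC, near 19.0 and 16.7 CPM per kb on average, and stand apart in siEgr2, at 16.3 and 9.83, while all 3 synthases lie under Cemip, Cemip2, Hyal2 and Cd44.

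Ratios of counts within a library do not depend on how libraries are scaled. They were chosen after the levels were seen, with the gene that fell set against genes that were not called, so they restate the levels on another scale and are given as a description with no test. The ratio of Cd44 to Hyal2 ran from 5.27 to 6.60 in siNC and from 2.51 to 3.41 in siEgr2, a log2 difference of -0.93. The ratio of Cd44 to Cemip2 ran from 1.5 to 2.65 and from 0.931 to 1.47, a difference of -0.68, also with no overlap. For Cd44 to Cemip the log2 difference was -0.55, and the ranges of 0.387 to 0.576 in siNC and 0.251 to 0.423 in siEgr2 overlapped.

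Other members were set against each other in the same way. The ratio of Has2 to Cemip counts ran from 0.0160 to 0.0340 in siNC and from 0.0197 to 0.0387 in siEgr2 (log2 difference 0.042). The sign of this difference changed when either siNC replicate 6 or siEgr2 replicate 2 was left out. Per kb, Has2 made up 77.7% ± 7.43 of the summed synthase level in siNC and 78.1% ± 5.20 in siEgr2 (SD, n = 6). Cemip made up 56.5% ± 4.17 of the summed level of the 5 genes of breakdown in siNC and 52.7% ± 3.11 in siEgr2. The summed synthase level was 0.0428 to 0.0600 times that of breakdown in siNC and 0.0388 to 0.0655 times in siEgr2. These are ratios of RNA and not of enzyme activity.

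**Figure D4:**
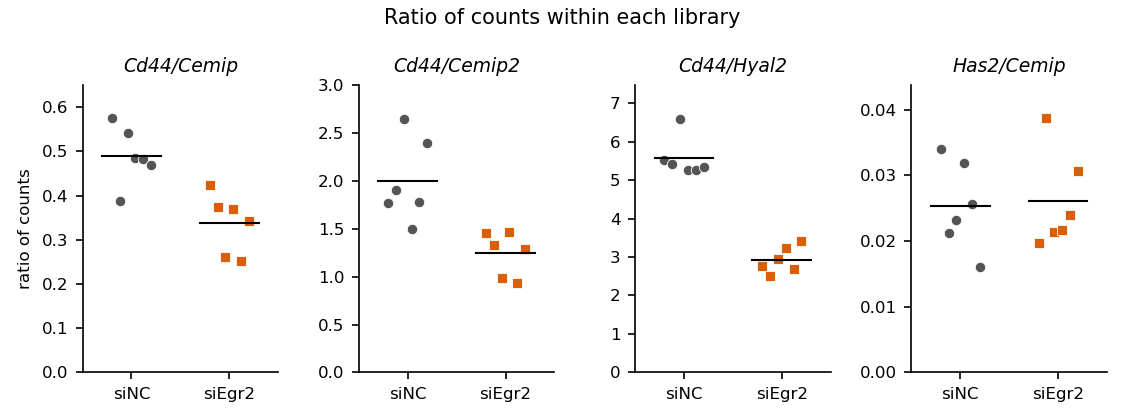
Ratio of counts of 2 genes within each library (linear axes from 0), with siNC as grey circles, siEgr2 as orange squares and a black line at the mean of 6 libraries. The ratios of Cd44 to Cemip2 and to Hyal2 do not overlap between the groups, that of Cd44 to Cemip overlaps, and so does that of Has2 to Cemip.

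Genes that supply the sugar nucleotides for hyaluronan gave 1 call in 10 tested genes. The shares over all genes tested, 7.72% called and 5.08% called lower, stand beside this and the following lists. Ugp2, which makes UDP-glucose, fell by 0.50 on the log2 scale, with 138 ± 12.5 CPM in siNC and 97.6 ± 6.54 CPM in siEgr2 (SD, n = 6; adjusted p = 2.23e-05, edgeR), and it was called in 11 of 22 other fits. Ugdh, which turns UDP-glucose into UDP-glucuronic acid, had a value of 0.30 in the other direction with an adjusted p of 0.000101 and was not called, its size being under 0.5. Gfpt2, an entry enzyme of the hexosamine pathway, stood likewise at -0.49 (adjusted p = 0.000284), while its relative Gfpt1 was at -0.012. Among 9 other genes of breakdown 5 were tested and 0 were called, with 1 gene, Hexa, past the adjusted p alone (log2 fold change -0.45), and Hyal4 and the sperm enzymes Hyal5 and Spam1 had 0 counts in all libraries.

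Of 9 other genes described as hyaluronan receptors, 6 were tested and 2 fell. Layn, or layilin, fell from 14.6 ± 1.65 to 7.32 ± 1.42 CPM, a log2 fold change of -0.99 (adjusted p = 6.04e-05, edgeR). Tlr2, an innate immune receptor that hyaluronan fragments are reported to engage, fell from 7.65 ± 1.82 to 2.12 ± 0.453 CPM, a change of -1.85. Hmmr, a receptor that also acts at the mitotic spindle, had a log2 fold change of 0.33 (adjusted p = 0.0164) and was not called, its size being under 0.5. The endothelial type receptors Lyve1 and Stab2 were at or near 0 in both groups.

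Among 18 proteins that bind hyaluronan in the matrix, 12 were tested and 3 fell. Ptx3, a pentraxin that joins the heavy chains of the Itih family in the hyaluronan matrix, fell from 38.1 ± 3.64 to 11.98 ± 1.92 CPM, a log2 fold change of -1.66 (adjusted p = 2.30e-08, edgeR). The heavy chain genes Itih5 (-0.81) and Itih3 (-0.78) fell, and Itih2 stood at -0.48. Tnfaip6, which transfers heavy chains to hyaluronan, was at 0.022 (adjusted p = 0.957). The lecticans, proteoglycans that carry a hyaluronan-binding domain, held no call. Acan was at -0.56 (adjusted p = 0.495) and Bcan at -0.12, while Ncan at -0.26 (adjusted p = 0.000503) and Vcan at 0.17 (adjusted p = 0.0396) passed the adjusted p and were under 0.5 in size.

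Of 16 genes that act with Cd44 or process it, 12 were tested and 4 fell. Ezr, which links Cd44 to actin, fell from 180 ± 8.41 to 109 ± 6.85 CPM, a log2 fold change of -0.73 (adjusted p = 3.57e-08, edgeR). Its relative Msn fell by 0.54 on the log2 scale, whereas Rdx, the remaining member of the trio, was at 0.30 (adjusted p = 0.418) with a wide spread in siNC of 223 ± 77.8 CPM. Spp1, or osteopontin, a ligand of Cd44, fell by 0.81 and Mmp14, a membrane protease that cuts Cd44, by 0.75. Of the other proteases of this list, Adam10 and Adam17 were at 0.017 and 0.027, and Mmp9 was too low to be tested. Esrp1 and Esrp2, which favor the variant exons of Cd44 in epithelia, were too low to be tested.

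**Figure D5:**
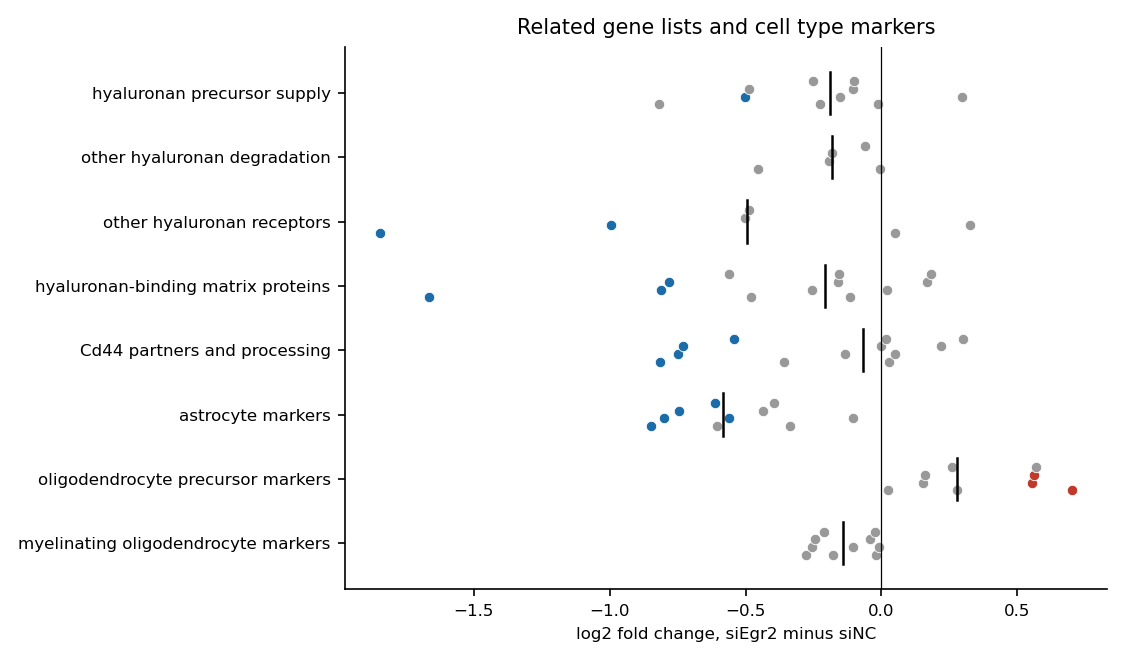
Log2 fold change (siEgr2 minus siNC) of each tested gene of 5 hyaluronan-related lists and 3 marker lists, with genes called lower in blue, called higher in red and not called in grey, and a black line at each median. The calls in the 5 hyaluronan-related lists are all lower, those of the astrocyte markers are lower and those of the precursor markers higher. Over all genes tested, 437 were called higher and 844 lower.

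The cultures held RNA of astrocyte markers beside that of oligodendrocytes. The 10 markers of myelinating oligodendrocytes summed to 7283 to 8308 CPM in siNC and 6841 to 7122 CPM in siEgr2, with 0 of 10 called. The 9 markers of precursors summed to 5168 to 5538 and 6420 to 6566 CPM, with 3 called higher, of which Pdgfra and Cspg4 were not called when scaled by library size alone. The 10 astrocyte markers summed to 8174 to 8877 CPM in siNC and 5202 to 5909 CPM in siEgr2, with 5 of 10 called lower, a median log2 fold change of -0.58 and single values from -0.85 to -0.11, a range that holds the -0.76 of Cd44. Within a library, the log2 ratio of Cd44 to the summed astrocyte markers differed by -0.16 between the groups, again a description with no test. The ratio itself ran from 0.0111 to 0.0165 in siNC and from 0.00963 to 0.0135 in siEgr2, so the ranges overlapped. The difference was smaller in size without siNC replicate 3 or siEgr2 replicate 5, and larger without siNC replicate 4 or siEgr2 replicate 1. The part of the astrocyte markers in the fall of Cd44 was not tested.

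Other cell types were measured the same way. Of 9 fibroblast and pericyte markers 8 were tested and 3 were called lower, of which Pdgfrb was at -0.49 and not called without siNC replicate 2, and their sum ran from 832 to 1380 CPM in siNC and from 845 to 1046 CPM in siEgr2. Of 10 microglia markers 4 were tested and 0 were called, and Aif1 and Itgam had 0 counts in all libraries. Of 7 endothelial markers 3 were tested and 1 was called lower, Flt1, which was not called on thinned counts (adjusted p = 0.188), with Cldn5 at 0 counts throughout, and the sums overlapped at 25.9 to 35.0 and 27.5 to 38.0 CPM. Neuron markers gave 1 call lower in 6 tested, with sums of 136 to 155 and 118 to 130 CPM, and ependymal markers 0 in 5, with sums of 66.3 to 86.6 and 50.9 to 64.5 CPM.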

How the data were processed

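Total RNA of 12 samples of OLs was extracted with TRIzol, and adapter-ligated, reverse-transcribed libraries were read on an Illumina instrument. The authors deposited raw counts per gene symbol, without normalization. The submitters' processing notes name the build mm10, while the aligner, the counting program and the use of strand are not given in the sources used here. A single unnamed entry with 0 counts was left out. The test was edgeR 4.0.16 under R 4.3.3 (filterByExpr, TMM, glmQLFit with robust estimation, quasi-likelihood test, Benjamini-Hochberg adjustment over 16600 genes), without covariates. The thresholds of 0.05 for the adjusted p and 0.5 for the log2 fold change are those of the study, and the latter was applied here in either direction. Standard errors were taken from the fold change and the F statistic. Exact permutation tests were run in SciPy 1.17.1 on log2 of CPM plus 0.5. Exon lengths and coordinates came from GENCODE M21 (GRCm38), which covers 95.6% of the tested genes.

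Samples were grouped by their titles. The 30 same-group pairs of libraries differed by a chi-square of 7.54 to 42.2 per gene, above sampling noise, so none was counted as a copy. Named genes are the 9 hyaluronan genes, Egr2, and the called genes of the hyaluronan-related lists and of the Hyal neighbours. Other members of the lists, Has2os and Naa80 were named after their values were seen. Genes most alike a member were the 3 with the highest Pearson r after group means were subtracted. The members and lists were chosen with earlier results of these data known. The summed level of the microglia markers and the values of 1 gene of the lists are not reported here. The procedure was tested on simulated counts. DESeq2 1.42.0, limma-voom (limma 3.58.1), other scalings and filters, a replicate block, thinned counts and left-out libraries were run as alternatives. Those for the ratios and for the called genes of the lists were added after the data were seen.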

Additional observations from a re-analysis of the deposited data

How the results depend on the processing

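Counts were low for Has1, Has3 and Hyal3, which limits what could be detected for them. The number of genes called was 1281 (437 higher, 844 lower), 1974 with library size only (237 higher, 1737 lower, median of all genes -0.18 in place of 0.0046), 3300 with the adjusted p alone and 373 with a log2 fold change over 1. The hyaluronan genes called were 1 (Cd44), 2 with library size only (Hyal1 and Cd44), 2 with no filter on low counts (Has1 and Cd44) and 0 with a log2 fold change over 1. With library size only, Hyal2 went from 0.18 to -0.0064 and Egr2 was called at -0.70 (adjusted p = 0.0144). Leaving out 1 library at a time, in 12 fits, 1114 to 1339 genes were called and the hyaluronan genes called stayed at 1, Cd44, at -0.81 to -0.70. Hyal3, tested in 6 of these, ran from -0.67 without siEgr2 replicate 5 to 0.0088 without siEgr2 replicate 3. The log2 fold change of Cd44 was -0.76 with DESeq2, -0.76 with limma-voom and -0.78 on thinned counts. The replicate block gave 1124 genes and 1 hyaluronan gene, Cd44 (-0.76, edgeR adjusted p = 0.00186). Same-numbered libraries correlated at -0.057 to 0.073 in their deviations, 0 pairs over 0.1. Of the siNC libraries, 2 of 6 correlated best with their own number. Whether the numbers pair the samples cannot be settled from these correlations. Of the called genes of the other lists none changed direction in these fits, while Ugp2, Sema3b, Pdgfra, Cspg4, Pdgfrb and Flt1 each lost their call in at least 1 of them. The permutation results did not change sides of 0.05 with 0.1 or 1 CPM in place of 0.5.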

Other observations

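Around the Hyal cluster on chromosome 9, 9 neighbouring genes were tested and 1 was called lower, Sema3b, a secreted semaphorin (log2 fold change -0.79, edgeR adjusted p = 0.0385), which was called in 12 of 22 other fits. Tusc2, next to Hyal2, stood at 0.026 and Ifrd2, next to Hyal3, at 0.14. Has2os, the antisense gene of Has2, had 0.526 ± 0.286 CPM in siNC and 0.739 ± 0.829 CPM in siEgr2 (SD, n = 6), with 0 to 27 counts per siEgr2 library, and did not pass the filter on low counts (two-sided exact permutation test, p = 0.866).

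After the mean of each group was subtracted, the genes whose levels followed Cd44 most closely over the 12 libraries, among 9065 genes averaging 4 or more on the log2 CPM scale, were Gpc4 (Pearson r 0.96), Osbpl6 (0.91) and Nudt4 (0.91). Gpc4 fell (log2 fold change -0.78) and Osbpl6 rose (0.53). For Cemip they were Bgn (0.95), Zfp629 (0.92) and Mgp (0.92), for Hyal2 Mapk3 (0.96), Lfng (0.94) and Net1 (0.93), and for Cemip2 Tbc1d13 (0.91), Fam205a1 (0.90) and Phf23 (0.87). Among the hyaluronan genes themselves r was 0.71 between Cd44 and Hyal2, -0.00025 between Cd44 and Cemip, and -0.45 between Cd44 and Cemip2. Each r is over 12 libraries that differ in depth, and both of its genes were measured in the same libraries, so the values are a description with no test.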
